A study of Macaca mulatta with 8 samples.

Results

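The interleukin (IL)-6 and IL-10 family axis was followed as 10 genes in primary microglia of rhesus macaques. The members were the ligands IL6, LIF, OSM, IL11 and IL10 and the receptor chains IL6R, IL6ST, OSMR, IL10RA and IL10RB, whose rows were found by gene symbol. Of these 10, 9 had a row among the 35432 genes counted, and all 9 passed the filter on low counts with 12131 genes in all. IL10RB had no row under its symbol, so its expression was not analysed here. RNA was sequenced from 8 libraries, 1 per condition from each of 4 adult donors, males R07110 and R12016 and females R02046 and R14143. The cells came from subcortical white matter and were cultured with macrophage colony-stimulating factor (M-CSF). In 4 libraries, the uLPS group, microglia had received ultrapure lipopolysaccharide (uLPS), an agonist of Toll-like receptor (TLR) 4, at 10 µg/mL during 16 h. In the other 4 libraries, the uLPS + MRS2578 group, the same exposure followed 1 h of pre-incubation with 5 µM MRS2578, a selective but not entirely specific antagonist of the nucleotide receptor P2RY6 that is dissolved in DMSO. Both groups thus carried uLPS, and no library without uLPS was analysed here, so induction by uLPS was not measured. The comparison asked which of these transcripts differed with MRS2578 during the TLR4 response. Effects of MRS2578 through P2RY6 and through other targets cannot be told apart in it.

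IL-6 family cytokines share the signal transducing chain gp130, the product of IL6ST, which pairs with a ligand-specific chain such as OSMR or is engaged by IL-6 bound to IL6R. IL-10 signals through IL10RA and IL10RB and restrains cytokine production by macrophages and microglia. Both routes activate Janus kinases and the transcription factor STAT3, and IL6 itself is a classic target of NF-κB and C/EBP factors behind TLR4.

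The 8 libraries held between 9231109 and 32790348 counts, and 3 counts corresponded to 0.0914 to 0.32 CPM (counts relative to the TMM-scaled library size), which is the limit that a count of 0 allows for counting error only. The conditions of donor R02046 are uncertain. Each of the 8 CPM columns printed beside the published list of differentially expressed genes was proportional to the counts of 1 library. For 6 columns that library had the same donor and condition, and the 2 columns of R02046 each matched the library labelled with the other condition. The deposited labels were kept, and edgeR's test and that of the IL6 to IL10 ratio were repeated with the R02046 libraries exchanged and without R02046. Among 10 microglia markers with a row, CSF1R was at 1007 to 1471 CPM and ITGAM and SPI1 were also high, whereas TMEM119 and P2RY13 had at most 5 counts and CX3CR1 had at most 35 counts in any library. The 6 lymphocyte markers summed to at most 0.443 CPM. Bulk RNA was measured, so fewer cells of a type and less RNA per cell cannot be told apart.

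IL6, the ligand that gives the family its name, lies at chr3:92381581-92386259 on the minus strand (Mmul_10). Since it was the member with the largest difference between conditions, the stretches before its start codon that hold letters of an NF-κB motif and of a C/EBP motif are shown, read 5′ to 3′ on the strand of the gene with the matched letters in capitals. The first runs from chr3:92386002-92386031 and the second from chr3:92386083-92386112.
IL6 NF-κB letters: atcaaatgtgGGATTTTCCcatgagtctca
IL6 C/EBP letters: aggacgtcacaTTGCACAAtcttaatgttt
The capitals lie 135 to 127 bases and 215 to 208 bases before the annotated start codon. Over 21106 genes, the NF-κB letters GGNNTTTCC occurred on either strand within 300 bases before the start codon in 5.55%, and IL6 was the 1 member that held them. The annotation places both stretches in the first exon of a predicted IL6 transcript, as 5′ UTR, and upstream of the curated transcript, which begins at its start codon. The C/EBP letters TTGCNNAA occurred in 9.59% of the windows, among them those of IL6 and IL10. STAT letters, TTCNNNGAA, occurred in 7.51% of windows and in those of LIF, OSM and IL10RB. CRE letters, TGACGT, occurred in 6.21% and in IL6 and IL10RA, NFAT letters, TGGAAA, occurred in 20.7% and in IL6, IL6ST and OSM, and AP-1 letters, TGANTCA, occurred in 6.15% and in no member. In IL6 the CRE letters ended 218 bases before the start codon, next to but not overlapping the C/EBP letters. These matches describe the letters of the windows only.

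Levels were compared between genes per kilobase of exon. The lengths joined the exons of all RefSeq transcripts of a gene on Mmul_10, predicted ones included, whereas the counts are per Ensembl gene. IL6 had 2532 exon bases (921 coding) and LIF had 7601 (700 coding), so shorter transcripts would place them higher. The order between genes thus depends on these lengths. With uLPS alone IL6 stood at 120 ± 73.2 CPM per kb and IL10RA at 116 ± 33.5 (SD, n = 4), and their ranges overlapped. IL6ST followed at 21.5 ± 9.97 CPM per kb, below every library of IL10RA but overlapping IL6 through the uLPS library of R02046. OSM, at 6.71 ± 2.23 CPM per kb, overlapped neither IL6ST above it nor IL6R below it, but overlapped LIF. The remaining members overlapped one another, with IL6R at 2.78 ± 0.932, LIF at 2.49 ± 2.13, IL11 at 2.04 ± 1.98, OSMR at 1.59 ± 1.79 and IL10 at 1.2 ± 1.01 CPM per kb. The annotated IL10 exons span 643 bases, of which 534 are coding, so that a longer transcript would place IL10 lower still. IL6ST, the shared chain, exceeded IL6R in all 8 libraries, and IL10RA exceeded IL10 in all 8 libraries. With MRS2578 IL10RA was at 109 ± 14.9 and IL6 at 40.4 ± 10.8 CPM per kb, and these ranges no longer overlapped, while IL6R was at 4.29 ± 1.07. Among the mean CPM values of the 12131 genes, IL10RA ranked at the 97.1 percentile, IL6 at the 92.5 and IL6ST at the 89.6, against the 0.94 percentile for IL10.

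**Figure D1:**
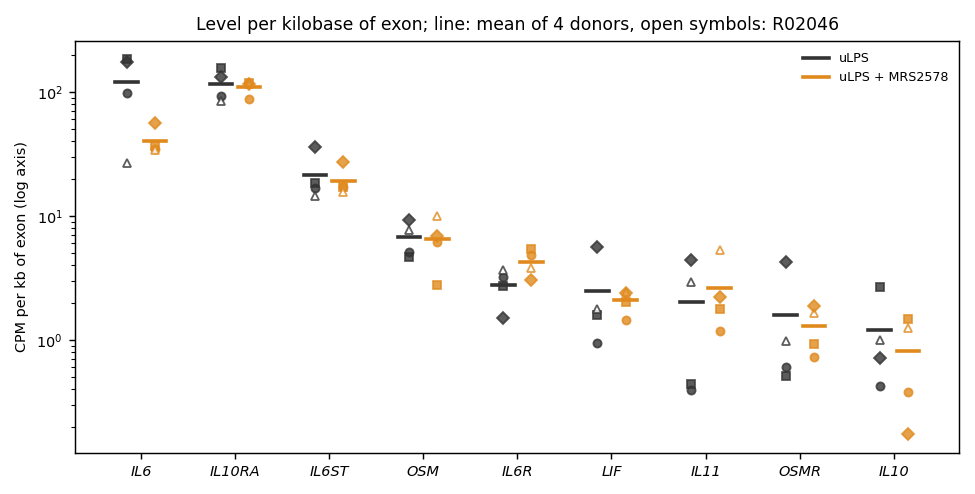
Level of each member in CPM per kb of exon on a log axis, ordered by the mean with uLPS, with 1 symbol per donor and condition, open symbols for R02046 and a line at the mean of 4 donors. IL6 and IL10RA lie near 120 and 116 CPM per kb with uLPS, and IL10 lies lowest.

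With MRS2578, IL6 was lower in 3 donors (R07110, R12016 and R14143) and higher by 0.36 on the log2 scale in R02046 as labelled, and IL6R was higher in all 4 donors. IL10 and IL10RA were lower in the same 3 donors as IL6, and the remaining 5 members did not keep 1 direction across those 3 donors. In a quasi-likelihood fit of edgeR that blocked on the donor, no member passed an adjusted p of 0.05 (0 of 9), beside 0% of the 12131 genes tested. At an unadjusted p of 0.05 the test counted 2 of 9 members, IL6 and IL6R, against 5.14% of all genes, or 624 genes. DESeq2's Wald test also called 0 members and 1 other gene. The median log2 fold change was -0.05 over the members and -0.01 over all genes. With the R02046 libraries exchanged, 0 of 9 members and 0.618% of all genes passed the adjusted p. At the unadjusted p those numbers were 3 of 9, with IL10RA as the third, and 16.4%, and the median over the members was -0.28. Without R02046 IL10 fell below the filter, and 0 of 8 members and 0% of 12295 genes passed. At the unadjusted p 2 of 8 members and 13.6% of genes were counted there.

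**Figure D2:**
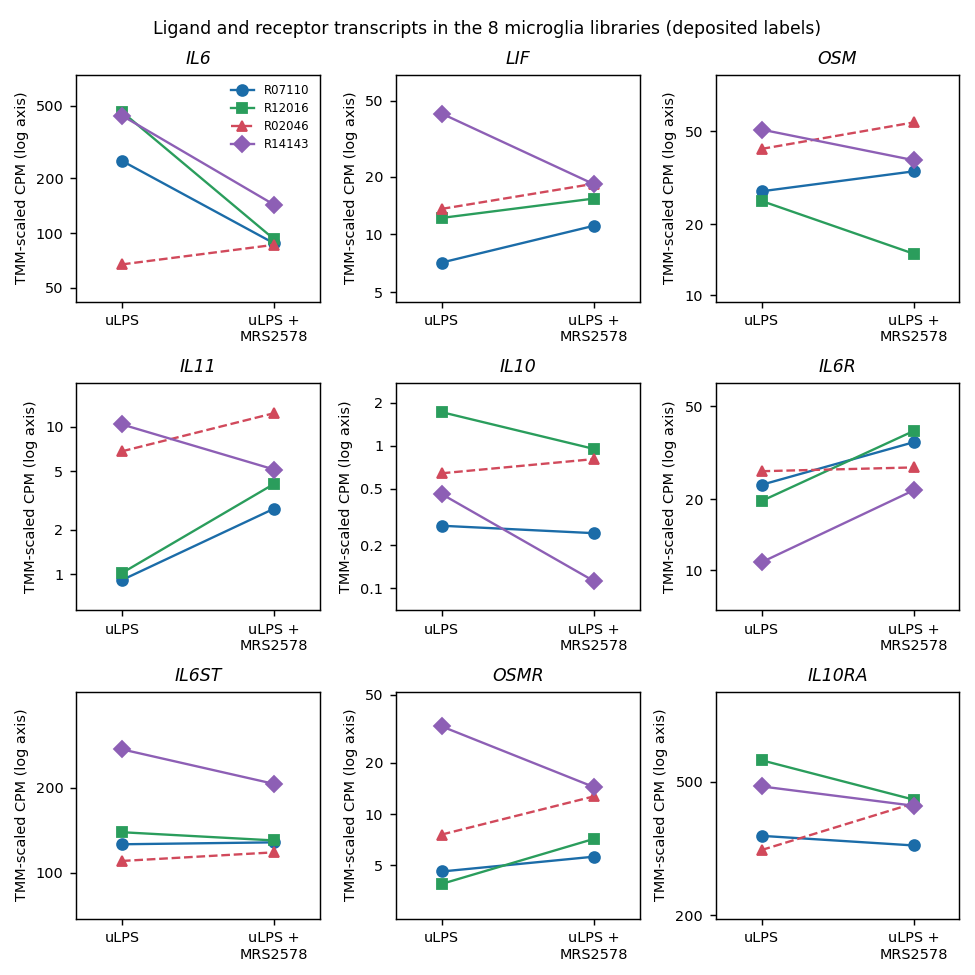
TMM-scaled CPM (log axis) of the 9 members in the 8 libraries by deposited label, with 1 line per donor and a dashed line for R02046. IL6 runs from 249, 463 and 441 down to 87.8, 92.5 and 143 CPM in R07110, R12016 and R14143, and from 67.3 to 86.2 CPM in R02046.

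With uLPS, IL6 had 249, 463, 67.3 and 441 CPM in R07110, R12016, R02046 and R14143. With MRS2578 it had 87.8, 92.5, 86.2 and 143 CPM in the same order. The uLPS libraries of R07110, R12016 and R14143 were high, both R02046 libraries were low, and the groups overlapped through the uLPS library of R02046. On the log2 scale the within-donor differences were -1.5, -2.32, 0.36 and -1.62, with a mean of -1.27 ± 1.14 (SD, n = 4). By edgeR, the log2 fold change was -1.31 (SE 0.40, adjusted p = 0.878), a level of 0.403 times that with uLPS. It was -1.47 (SE 0.27, adjusted p = 0.0599) with R02046 exchanged and -1.82 (SE 0.18, adjusted p = 0.12) without R02046. IL6 thus missed the threshold under each of the 3 assignments. With R02046 exchanged and R14143 left out, edgeR called IL6 at -1.42 (adjusted p = 0.033). That fit called 918 genes, and IL6 ranked 518 by p among all genes. With R02046 exchanged, DESeq2's Wald test called IL6 at -1.47 (adjusted p = 0.0077). It called 583 genes, with IL6 at rank 268 by p, and this DESeq2 fit was added after seeing the data.

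LIF, a ligand that signals through LIFR and gp130, is the neighbour of OSM on chromosome 10, with 9306 bases between their annotated ends (OSM chr10:21276787-21282760, LIF chr10:21292067-21304985, both on the plus strand). LIF had 7.13, 12.2, 13.6 and 42.8 CPM with uLPS in R07110, R12016, R02046 and R14143, and 11.1, 15.4, 18.4 and 18.3 CPM with MRS2578. It was higher with MRS2578 in 3 donors and lower in R14143, the donor with the highest level, and the groups overlapped. Its edgeR log2 fold change was 0.04 (SE 0.31, adjusted p = 0.992). It was -0.20 with R02046 exchanged and 0.47 (SE 0.16, adjusted p = 0.974) without R14143, and its direction thus depended on the donors included. OSM, made by activated myeloid cells, had 27.7, 25.2, 42 and 50.8 CPM with uLPS and 33.7, 15, 54.5 and 37.6 CPM with MRS2578. OSM was higher with MRS2578 in R07110 and R02046 and lower in R12016 and R14143, and the groups overlapped. The edgeR log2 fold change of OSM was -0.12 (SE 0.20, adjusted p = 0.945), -0.30 (adjusted p = 0.399) with R02046 exchanged. LIF and OSM differed in direction within R12016, where the log2 difference of LIF was 0.34 and that of OSM was -0.75.

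IL11, a gp130 ligand made mainly by stromal cells (chr19:55114924-55120144, minus strand), had 0.914, 1.02, 6.83 and 10.4 CPM with uLPS and 2.79, 4.11, 12.4 and 5.14 CPM with MRS2578. It rested on 16 to 204 counts. It was higher with MRS2578 by 1.51, 1.9 and 0.85 on the log2 scale in R07110, R12016 and R02046, and lower in R14143 with a difference of -1. In edgeR the log2 fold change was 0.70 (SE 0.48, adjusted p = 0.885), and 0.06 (SE 0.49, adjusted p = 0.965) with R02046 exchanged. Without R14143 it was 1.43 (SE 0.30, adjusted p = 0.974, unadjusted p = 0.00356), and without R12016 it was 0.33, so that its size depended on the donors included. The 4 donor means of log2 CPM had an SD of 1.23, the widest of the 9 members.

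IL10, the ligand of the IL-10 receptor (chr1:64278631-64282628, minus strand), was close to the detection limit. It had 9, 27, 6 and 9 counts with uLPS in R07110, R12016, R02046 and R14143 and 6, 15, 11 and 2 counts with MRS2578, or 0.274, 1.72, 0.64 and 0.457 CPM against 0.243, 0.949, 0.805 and 0.112 CPM. R12016 was highest in both conditions, and the groups overlapped. The edgeR log2 fold change was -0.59 (SE 0.50, adjusted p = 0.901), and -0.75 (SE 0.47, adjusted p = 0.47) with R02046 exchanged. The within-donor log2 differences were -0.12, -0.79, 0.29 and -1.37, and without R14143 the edgeR value was -0.36. The log2 ratio of IL6 to IL10 counts, which needs no scaling between libraries, was 9.75, 8.04, 6.6 and 9.84 with uLPS and 8.38, 6.56, 6.68 and 10 with MRS2578. It was lower with MRS2578 in R07110 and R12016 and higher by 0.08 and 0.16 in R02046 and R14143, with a mean difference of -0.65 ± 0.89 (SD, n = 4, exact sign-flip permutation test, two-sided p = 0.5). The smallest p that 4 donors allow in this test is 0.125, so that it could not pass 0.05. In R14143 the ratio rested on 9 and 2 IL10 counts.

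IL6R, the chain that binds IL-6 (chr1:96570516-96633105, minus strand), had 23.1, 19.7, 26.4 and 10.8 CPM with uLPS in R07110, R12016, R02046 and R14143. With MRS2578 it had 35.1, 39.2, 27.4 and 21.9 CPM. IL6R was higher with MRS2578 in each donor, although the groups overlapped between donors, and in R02046 its difference was 0.05 on the log2 scale and turns negative when the libraries of that donor are exchanged. Of all genes, 6.43% were higher in all 4 donors, and IL6R was the 1 member of 9 among them. The mean within-donor difference was 0.66 ± 0.45 (SD, n = 4). By edgeR, the log2 fold change was 0.67 (SE 0.18, adjusted p = 0.878), a level 1.59 times that with uLPS. It was 0.64 (SE 0.18, adjusted p = 0.147) with R02046 exchanged and 0.86 (SE 0.14, adjusted p = 0.134) without R02046. IL6R was called at 0.64 (adjusted p = 0.043) by DESeq2's Wald test with R02046 exchanged, a fit added after seeing the data. That fit called 583 genes, and IL6R ranked 548 by p among all genes. Ligand and receptor thus stood in opposite directions in R07110, R12016 and R14143.

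IL6ST, which encodes gp130 (chr6:54242537-54300162, minus strand), had 126, 139, 110 and 273 CPM with uLPS and 128, 130, 118 and 206 CPM with MRS2578. R14143 was high in both conditions, and the largest within-donor difference was -0.4. The edgeR log2 fold change was -0.10 (SE 0.11, adjusted p = 0.927), and -0.15 (adjusted p = 0.476) with R02046 exchanged. OSMR, the chain that pairs with gp130 for oncostatin M (chr6:38680616-38777959, plus strand), had 4.6, 3.89, 7.58 and 32.7 CPM with uLPS and 5.62, 7.15, 12.7 and 14.4 CPM with MRS2578. Its level with uLPS was highest in R14143, where it was lower with MRS2578, in contrast to the other donors. In edgeR the log2 fold change of OSMR was 0.13 (SE 0.35, adjusted p = 0.969), -0.29 with R02046 exchanged and 0.63 (SE 0.21, adjusted p = 0.974) without R14143.

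IL10RA, the ligand-binding chain of the IL-10 receptor (chr14:111042734-111058413, plus strand), had 345, 579, 313 and 484 CPM with uLPS. With MRS2578 it had 323, 442, 431 and 424 CPM. The within-donor log2 differences were -0.09, -0.39, 0.46 and -0.19, so that R02046 as labelled stood apart in direction, and the groups overlapped. The edgeR log2 fold change was -0.05 (SE 0.15, adjusted p = 0.97), -0.28 (SE 0.09, adjusted p = 0.199) with R02046 exchanged and -0.23 (SE 0.11, adjusted p = 0.437) without R02046. IL6, IL10 and IL10RA were the 3 of 9 members lower in each of R07110, R12016 and R14143, a pattern that 19.8% of all genes shared.

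**Figure D3:**
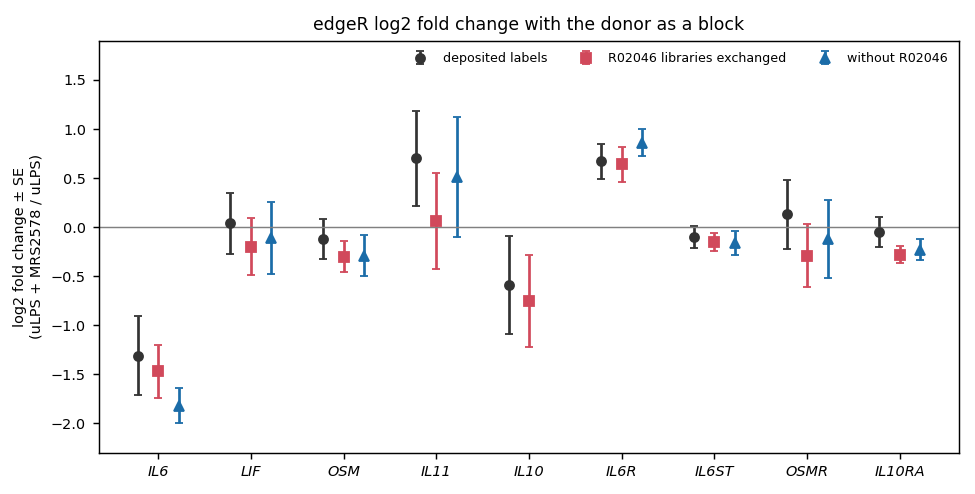
edgeR log2 fold change (uLPS + MRS2578 over uLPS) with its SE for each member under the deposited labels, with the R02046 libraries exchanged and without R02046. IL6 lies at -1.31, -1.47 and -1.82 and IL6R at 0.67, 0.64 and 0.86, and IL10 was not tested without R02046.

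In each donor the differences of IL11, OSMR and LIF had the same sign as that of the summed level of fibroblast markers. The 6 markers COL1A1, COL1A2, COL3A1, DCN, LUM and PDGFRA, none of which was at 0 in any library, summed to 202, 136, 423 and 1261 CPM with uLPS in R07110, R12016, R02046 and R14143. With MRS2578 they summed to 290, 261, 579 and 476 CPM. The log2 differences of this sum were 0.52, 0.94, 0.45 and -1.41, beside 1.51, 1.9, 0.85 and -1 for IL11, 0.28, 0.86, 0.74 and -1.18 for OSMR and 0.63, 0.34, 0.43 and -1.22 for LIF. Of the 6 markers, 4 had this sign in every donor, and LUM and PDGFRA were lower with MRS2578 in R02046, with log2 differences of -0.74 and -0.15. The summed astrocyte markers also had the sign of IL11, OSMR and LIF in each donor, with 75.4, 121, 45.9 and 151 CPM with uLPS and 77.4, 128, 57.6 and 67.7 CPM with MRS2578. No single astrocyte marker had it in all 4 donors. The part of any marker list in the values of IL11, OSMR and LIF was not tested. IL6 did not follow this order, since it was lower both in R07110 and R12016, where the sum was higher with MRS2578, and in R14143, where the sum was lower. Endothelial and mural markers summed to 157, 239, 211 and 197 CPM with uLPS in R07110, R12016, R02046 and R14143. With MRS2578 they summed to 158, 295, 257 and 180 CPM. This sum too had the sign of IL11, OSMR and LIF in each donor, although it barely differed in R07110. Of its markers, PECAM1 was lower with MRS2578 in R07110 and R12016, and PDGFRB was lower in R07110 and R02046. VWF was lower in R02046 and higher in R14143. No single endothelial or mural marker had the sign of IL11, OSMR and LIF in all 4 donors. CLDN5, CDH5 and RGS5 were at 5 counts or fewer. With R02046 exchanged the astrocyte marker SLC1A2, a glutamate transporter, was lower with MRS2578 at -1.22 (SE 0.15, adjusted p = 0.0328 in edgeR), the single call among all gene lists. Oligodendrocyte markers summed to 61.3 to 71.7 CPM with uLPS and 65 to 76.1 CPM with MRS2578.

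**Figure D4:**
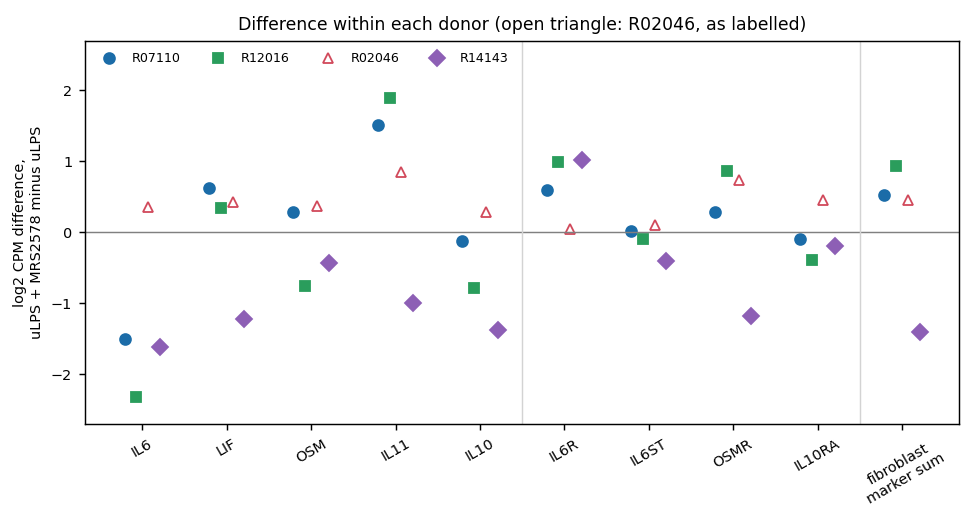
Difference of log2 CPM (uLPS + MRS2578 minus uLPS) within each donor for the 5 ligands, the 4 receptor chains and the summed fibroblast markers, with open triangles for R02046 as labelled. IL6R lies at or above 0.05 in all donors, and in R14143 IL11, OSMR and LIF lie below 0 together with the fibroblast marker sum.

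**Figure D5:**
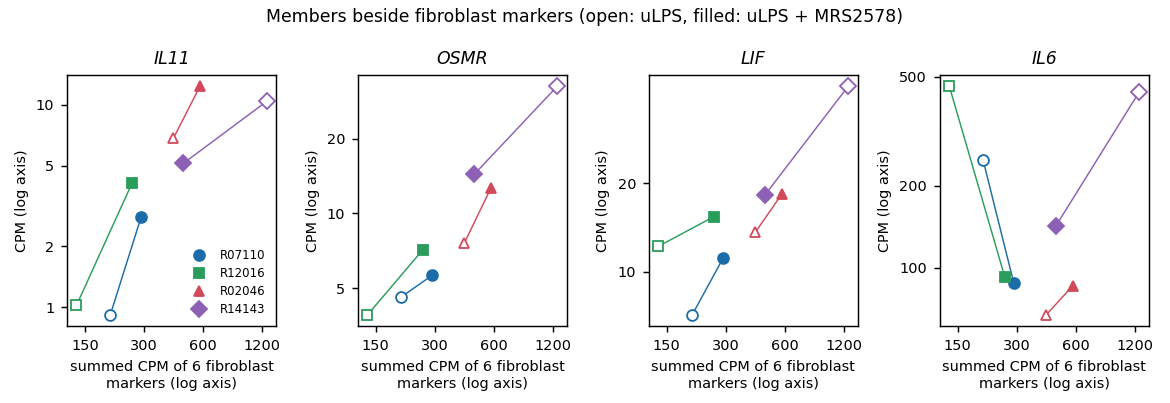
CPM of IL11, OSMR, LIF and IL6 against the summed CPM of 6 fibroblast markers (both axes log), with open symbols for uLPS, filled symbols for uLPS + MRS2578 and a line joining the libraries of a donor. The lines of IL11, OSMR and LIF rise to the right in all 4 donors, and those of IL6 fall to the right in R07110 and R12016.

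Other genes of the axis gave no call under the deposited labels, with R02046 exchanged or without R02046. Of 12 further ligands and receptor chains of the IL-6 family, 8 had a row. Under the deposited labels 3 were tested, with a median log2 fold change of -0.08. CNTFR, a receptor chain for ciliary neurotrophic factor, was the lowest at -0.42 (SE 0.56, adjusted p = 0.933 in edgeR). LIFR, the chain that LIF needs beside gp130, had 0 to 18 counts and did not pass the filter under the deposited labels. Without R02046 LIFR was tested, at 1.26 (SE 0.93, adjusted p = 0.615 in edgeR). Of 10 further members of the IL-10 family, all with a row, IL20RA alone was tested, at -0.62 (SE 0.20, adjusted p = 0.878). IL20, IL22 and IL26 were at 0 in all 8 libraries.

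Listed kinases, STAT factors, adaptors and inhibitors of cytokine receptor signalling, not all of which serve both receptors, were all tested. Of these, 9 of 11 had a negative log2 fold change with a median of -0.08, where 52.1% of all genes were negative. They ran from 0.13 (SE 0.12, adjusted p = 0.906 in edgeR) for JAK1, a kinase bound to gp130, to -0.78 (SE 0.49, adjusted p = 0.878) for CISH, an inhibitor of cytokine receptors. With R02046 exchanged 11 of 11 were negative, with a median of -0.29 beside 0 over all genes, of which 49.8% were negative. SOCS3, the inhibitor induced through STAT3 that binds gp130, was at 133 to 292 CPM, with log2 differences of 0.05, -0.17, 0.22 and -0.25. Of 8 tested genes that shed IL6R or act on the IL6 gene or transcript, 6 were negative with a median of -0.12. In that list the sheddase ADAM10 was highest at 0.06 (SE 0.10, adjusted p = 0.945), and CEBPD, a C/EBP factor, was lowest at -0.72 (SE 0.21, adjusted p = 0.878) and lower in each donor as labelled. With R02046 exchanged CEBPB, another C/EBP factor, was the lowest at -0.58 (SE 0.33, adjusted p = 0.423).

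Of 13 tested genes that respond to STAT3, 11 were negative with a median of -0.16, where 52.1% of all genes were negative. With R02046 exchanged 10 of 13 were negative (median -0.24), beside 49.8% of all genes. Without R02046 10 of 13 were negative (median -0.29), beside 50.5% of all genes. With the labels these 13 genes ran from 0.06 (SE 0.14, adjusted p = 0.962 in edgeR) for MYC down to CEBPD. The 14 genes known to be raised by IL-10 in macrophages had a median of -0.04, and 10 of them were negative. HMOX1, the heme oxygenase, was highest in that list at 0.90 (SE 0.34, adjusted p = 0.878) and 1.07 (adjusted p = 0.0828) with R02046 exchanged. SLAMF1, a surface receptor of immune cells, was lowest at -0.98 (SE 0.58, adjusted p = 0.878) and -1.5 (adjusted p = 0.084) with R02046 exchanged. Genes of 1 list thus lay on both sides of 0, and some genes stood in more than 1 list.

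Over the 8 libraries, the genes whose log2 CPM followed IL6 most closely among 7986 candidates were LIMK2 (Pearson r = 0.986), CDK17 (0.98), CH25H (0.98), TBC1D24 (0.976) and NFKBIA (0.973). Those most like IL10 among 7987 candidates were DYNLT1 (0.977), CAB39L (0.971), LMBRD1 (0.968), RAB12 (0.964) and TSPAN33 (0.962), although IL10 rested on 2 to 27 counts. The points share donors, depth and conditions, and these values describe likeness alone.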

How the data were processed

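RNA was measured in 8 libraries of rhesus macaque microglia, 4 per condition, paired by donor. The deposited values are whole-number read counts per Ensembl gene, without normalization. The authors' methods name fastp, STAR, SAMtools and HTSeq with unique reads within exons on Mmul_10, whereas the submitters' processing notes name Trimmomatic 0.30, TopHat2 2.0.14, SAMtools 1.3 and HTSeq 0.6.1p1. The strand setting and annotation release are not given in the sources used here, so overlapping genes are uncertain. Reads with several positions were not counted, which lowers near-identical copies.

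Groups came from the labels. The members and gene lists were chosen with earlier results of these data known. Counts were analysed in R 4.3.3 with edgeR 4.0.16 and limma 3.58.1, using filterByExpr (minimum count 10), TMM scaling and, with donor as blocking factor, the quasi-likelihood F-test, at a Benjamini-Hochberg adjusted p of 0.05 over all genes tested. The libraries of a donor come from 1 animal, and their deviations from the condition means correlated at 0.602 (R07110), 0.552 (R12016), 0.458 (R02046) and 0.562 (R14143). A prior count of 2 was added for log2 CPM, and the IL6 to IL10 ratio has 0.5 added to each count. DESeq2 1.42.0, other filters and scalings, no block, each donor left out and the R02046 libraries exchanged were alternatives. Of these 16 fits, 3 were added after seeing the data. On simulated counts the test recovered 194 of 200 genes changed 3-fold among 12034, with 202 called, and called 0 of 12032 without a change. The simulation gave all genes 1 fixed dispersion and each donor the same change. It therefore does not show how many changes of that size the test would find in these libraries, where differences varied between donors. No libraries were duplicates, since the lowest chi-square per degree of freedom between 2 libraries was 19.7.

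Named were all members, the largest rise and fall of each list or any called gene, and the 5 genes most like IL6 and IL10 with a mean CPM of at least 10. The value of 1 gene that this rule names is not reported here.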

Additional observations from a re-analysis of the deposited data

Results flagged for a closer look

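In a group of 4 libraries, a library was singled out when its gap to the nearest other exceeded Dixon's 95% limit as a share of the range. This held in 3 of 18 groups, where chance gives about 1 in 20 for a single group. The groups reuse the same 8 libraries and are not independent. With MRS2578, IL6 was at 7.16 log2 CPM in R14143, against 6.43 to 6.53 in the other donors, with a gap of 0.861 of the range. IL6ST with MRS2578 was likewise high in R14143, at 7.69 log2 CPM against 6.89 to 7.02, with a gap of 0.835. IL10RA with MRS2578 was low in R07110, at 8.34 log2 CPM against 8.73 to 8.79, with a gap of 0.867. No library of R02046 was singled out, but a gap between donors within a condition cannot show whether the conditions of a donor were exchanged.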

How the results depend on the processing

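Of 140 member fold changes under alternatives, 115 kept their direction and side of the threshold, 22 reversed and 3 passed it. Of the 3, IL6 at -1.42 came with R02046 exchanged and R14143 left out, where 1 member was called. IL6 at -1.47 and IL6R at 0.64 came with R02046 exchanged in DESeq2, where 2 were called. That DESeq2 fit was added after seeing the data. Over all genes, edgeR called 0 with the labels under every filter, scaling, block and left-out donor, and DESeq2 called 1, ENSMMUG00000064873 (log2 fold change -1.1, seen only after the fit). With R02046 exchanged, 75 genes were called, 5 without R12016 (HK3, C1QTNF1, IL2RA, TLR2 and CACNA1G, also named after the fit), 0 without R07110, 918 without R14143, 583 in DESeq2 and 39 with the earlier quasi-likelihood estimation of edgeR. Without the replicate block by donor, LIF was at -0.27 and OSMR at -0.31, and the pairing changed no other direction or call. With single donors left out, LIF ran from -0.17 to 0.47, OSMR from -0.13 to 0.63, OSM from -0.29 to 0.08, IL11 from 0.33 to 1.43, IL10 from -0.70 to -0.36 where tested, IL10RA from -0.23 to 0.06, IL6ST from -0.16 to 0, IL6 from -1.82 to -0.96 and the IL6 to IL10 ratio difference from -0.92 to -0.37. With R02046 exchanged LIF was at -0.20 (-0.47 without R07110, -0.38 without R12016, -0.18 in DESeq2 and -0.18 with the earlier estimation), OSMR at -0.29 (-0.46, -0.60, -0.22 and -0.24 in the same order), and IL11 at -0.28 without R07110 and -0.34 without R12016. The cause was not tested. IL6R ran from 0.55 to 0.86 with single donors left out. IL10 fell below the filter without R12016, without R02046, and with R02046 exchanged and R12016 left out. It was also not tested where at least 10 counts in every library were required. Depth limits IL10, at 2 to 27 counts, and no library without uLPS was analysed here.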

Other observations

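Some relatives of the members below the filter on low counts differed between donors. IL27, an IL-6 family ligand subunit, had 0 to 33 counts and at most 2.11 CPM, with log2 differences of -0.62, -2.9, 0.75 and -0.96 in R07110, R12016, R02046 and R14143. IL20RB, a receptor chain for IL-10 family ligands, had 1 to 50 counts, with log2 differences of 2.49, 3.45, -2.05 and 0.4. IL24 had 1 to 9 counts. None of these was tested, and all were named after their values were seen.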
